A study of Mus musculus with 16 samples.

Results

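Control bulge stem cells of the mouse hair follicle were set against control back skin, across all genes measured in both. The members are 8 of the 16 libraries of the series, 3 of sorted bulge cells and 5 of whole back skin, chosen by their genotype and tissue labels and not by any measured value. All 8 come from C57BL/6 mice whose genotype is given as Control; the labels name the other genotype of the study GRK2 eKO and do not say which alleles the controls carry. The bulge libraries were made from cells isolated by fluorescence-activated sorting for CD34 and α6-integrin, with RNA purified on micro columns and a library kit given only as Illumina-compatible. The skin libraries were made from QIAzol extracts of back skin of mice aged 8 months, after poly-A selection. The bulge labels give an age of 18 months, whereas the text on the design of the series has 8 months for either tissue, so the age of the bulge animals is not settled here. The labels used here name neither sex, nor pooling, nor a batch, and nothing states whether the libraries of a group come from separate animals.

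The bulge is a niche in the outer root sheath of the follicle below the sebaceous gland. It holds slow-cycling epithelial stem cells that regrow the lower follicle at each hair cycle, and it is kept quiet between cycles by BMP signals and by secreted Wnt antagonists. CD34 and α6-integrin are the surface pair commonly used to isolate these cells from mouse skin, α6-integrin marking basal epithelial cells and CD34 the bulge among them. Whole back skin contains the bulge together with interfollicular epidermis, sebaceous glands, dermis, fat, vessels, immune cells and the muscle layer below, so the comparison sets one population against a tissue that includes it.

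The tables of the 2 tissues were deposited apart and normalised apart by the authors. Reads were recovered from the deposited values and expressed per mega-read of each library's own total (counts per M, CPM), from 6.43 M to 6.73 M reads per bulge library and from 11.6 M to 14.2 M per skin library, where M is the SI prefix mega. Cell population, sorting, RNA extraction, library preparation and possibly age all change together between the groups, and their shares in a difference cannot be told apart; no p-value is therefore attached to a gene. A gene was counted higher or lower in bulge cells when the difference of its mean log2(CPM + 1) was at least 2, which is 4-fold, and no bulge library overlapped any skin library. This scale understates the change of low genes. Values below are mean CPM ± SD over 3 bulge and 5 skin libraries unless a library is named. Since these are bulk samples, fewer cells of a type and less RNA per cell cannot be told apart.

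Among 15256 genes with at least 2 CPM in at least 3 libraries, 824 were counted higher in bulge cells, which is 5.4% of those tested, and 2404 were counted lower, which is 15.8%. With edgeR's quasi-likelihood test on the same reads, which compares these libraries and not the cell population alone, 895 genes (5.87%) were higher and 3241 (21.2%) lower by 4-fold at an adjusted p under 0.05. The difference of all genes had a median of -0.01 on the log2 scale. Lack of overlap alone was common: every bulge library lay above every skin library for 34.7% of genes and below for 35.8%. A member's lack of overlap therefore carries little information on its own here. Across genes, log2 values of bulge libraries correlated with each other at Pearson r of 0.982 to 0.983 and those of skin libraries at 0.872 to 0.968, while bulge and skin libraries correlated at 0.613 to 0.673; genes are not independent replicates.

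**Figure D1:**
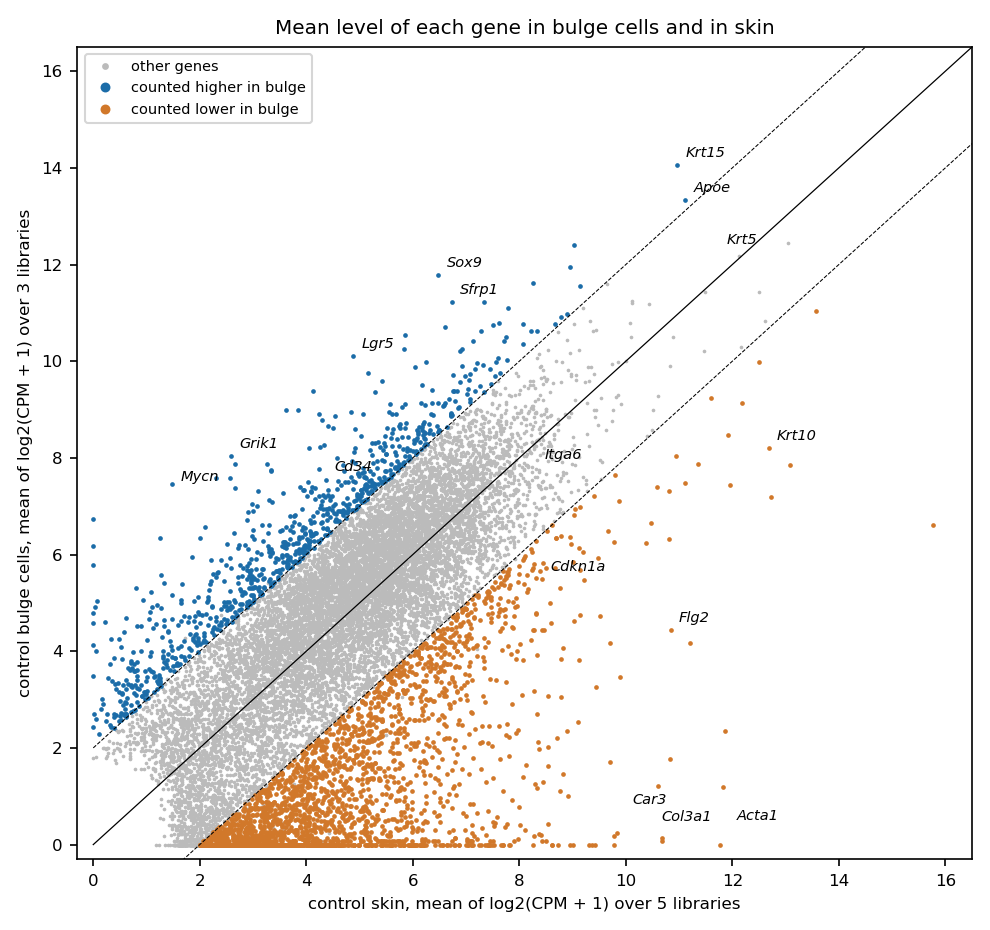
Each point is 1 of 15256 genes, with the mean of log2(CPM + 1) over 5 control skin libraries on the x axis and over 3 control bulge libraries on the y axis. The solid line marks equality and the dashed lines a 4-fold difference; the 824 genes counted higher in bulge cells are blue, the 2404 counted lower are orange, and many of the latter lie on the x axis because no read was found in the bulge libraries.

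Some skin libraries stood apart from the rest. Skin replicate 4 held a summed 15994 CPM of 19 hair matrix and shaft genes, against 62.4 to 1487 in the other 4 skin libraries, and was also the highest skin library for the cell cycle, Hedgehog and melanocyte lists. Skin replicate 1 held 42012 CPM of the fibroblast list, against 5941 to 13830 in the others. Skin replicate 5 held almost no read from the Y chromosome, 0.0854 CPM of Ddx3y against 103 to 109 in the other skin libraries, while all 3 bulge libraries held between 175 and 182 CPM. No pair of libraries held identical values.

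The share of reads in some abundant genes also differed between the groups, and preparation and cell population cannot be told apart as its source. Genes of the mitochondrial genome took 3.49 to 5.38% of skin reads and 1.02 to 1.12% of bulge reads. One gene identifier without a name in the annotation used here took 4.96 to 6.57% of skin reads and 0.00902 to 0.0102% of bulge reads. Their part in the differences below was not tested, and a library total without mitochondrial and the highest genes moved the median of all genes to -0.16.

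The sort markers were examined first. Cd34, which encodes the sialomucin used in the sort, was at 198, 190.1 and 172 CPM in the bulge libraries and at 32.3, 22.5, 13.0, 13.0 and 23.3 CPM in the skin libraries. All bulge libraries lay above all skin libraries, with means of 187 ± 13.2 and 20.8 ± 8.11 CPM and a difference of 3.18 ± 0.25 (SE) on the log2 scale. Itga6, the gene of α6-integrin, was at 306, 314 and 343 CPM in the bulge libraries and at 235, 329, 473, 249 and 276 CPM in skin. The groups overlapped for Itga6 and the difference was 0.08 ± 0.19 (SE), or -0.12 with median-of-ratios scaling. Of the 2 markers of the sort, therefore, only Cd34 was higher than in skin at the level of RNA.

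Krt15, a type I keratin long used as a bulge marker, had the highest level of the bulge gene list on both scales used. It was at 16748, 17261 and 16954 CPM in the bulge libraries and at 2231, 1136, 2429.6, 1979 and 2594 CPM in skin, a difference of 3.09 ± 0.21 (SE). Every bulge library was above every skin library, and the SD among bulge libraries was 258 CPM. Scaled per kilobase of exon, Krt15 led all named protein-coding genes of the bulge libraries that are not encoded in mitochondria, with 9614 CPM per kb, ahead of Apoe at 4813 and Krt5 at 2106.

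The largest differences of the list belonged to Sox9 and Lgr5. Sox9, a transcription factor required for the bulge, was at 3575, 3306 and 3636 CPM in bulge cells and at 84.2, 48.7, 104, 108 and 115 CPM in skin. Its mean of 3505 ± 176 CPM was 38.0 times that of skin, 92.1 ± 26.9 CPM. Lgr5, a receptor for R-spondins that raises the response to Wnt, was at 1083, 1095 and 1110.1 CPM in bulge cells and at 33.0, 12.8, 14.4, 57.3 and 51.1 CPM in skin. The bulge libraries agreed closely, with an SD of 13.7 CPM, while skin varied over 4-fold between its lowest and highest library; the difference was 5.22 ± 0.43 (SE).

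Other transcription factors of the list followed. Tcf7l2, which binds DNA with β-catenin and can also repress Wnt targets, was at 899, 935 and 987 CPM in bulge cells and at 55.0 to 78.0 CPM in skin, a difference of 3.84. Tcf7l1, its relative and a repressor in the bulge, was at 151, 131 and 132 CPM against at most 42.2 CPM, a difference of 2.22. Nfib, which restrains melanocyte stem cells through signals from the follicle, was at 3713, 4208 and 3904 CPM against 352 to 586 CPM. These 3 genes had no overlap between the groups. Nfatc1, a calcineurin-regulated factor linked to quiescence of the bulge, was at 741, 723 and 804 CPM against 79.8 to 161 CPM. Lhx2, a LIM homeobox factor that maintains the follicle stem cell state, was at 244, 244 and 247 CPM against 18.0 to 75.4 CPM. Skin replicates 4 and 5 held the most Lhx2 and still lay below every bulge library. Tbx1, a T-box factor, was uneven among the bulge libraries, at 102, 133 and 249 CPM against 13.3 to 64.2 CPM in skin. Its difference of 2.23 ± 0.58 (SE) came to 1.87 without bulge replicate 3 and to 1.94 without skin replicate 2, both under the 4-fold mark.

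The remaining surface and matrix genes of the list were also higher. Cd200, an immunoregulatory surface protein, was at 552 ± 28.2 CPM in bulge cells and 47.6 ± 11.7 CPM in skin. Postn, the matrix protein periostin, was at 1373 ± 58.7 against 227 ± 109 CPM, and Ccn2, a matricellular growth factor, at 416 against 76.7 CPM. Egfl6, a basement membrane protein of the upper bulge where sensory nerve endings attach, was at 79.2 ± 5.43 against 7.59 ± 2.87 CPM. Npnt, the gene of nephronectin, to which the arrector pili muscle is anchored, did not reach the 4-fold mark: 201, 188 and 204 CPM against 42.4 to 71.1 CPM, a difference of 1.84 with no overlap. Krt24 and Ltbp2 differed by 3.38 and 2.71.

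Of the 20 listed bulge genes, 19 passed the filter and 16 were counted higher, beside 5.4% of all genes tested. Their median difference was 2.71, beside -0.01 for all genes. Foxc1 and Nfix were the exceptions. Foxc1, a forkhead factor of quiescence, was at 37.7, 47.9 and 53.9 CPM in bulge cells and at 34.9 to 112 CPM in skin. Nfix, a relative of Nfib, was at 321, 401 and 765 CPM against 597 to 752 CPM, so that bulge replicate 3 alone lay above the skin libraries. Angptl7 was listed at 0 in all 8 libraries. The markers of the labelled population other than Angptl7 were thus present in all 3 bulge libraries. The list was drawn up from known bulge markers with earlier results of these data known.

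**Figure D2:**
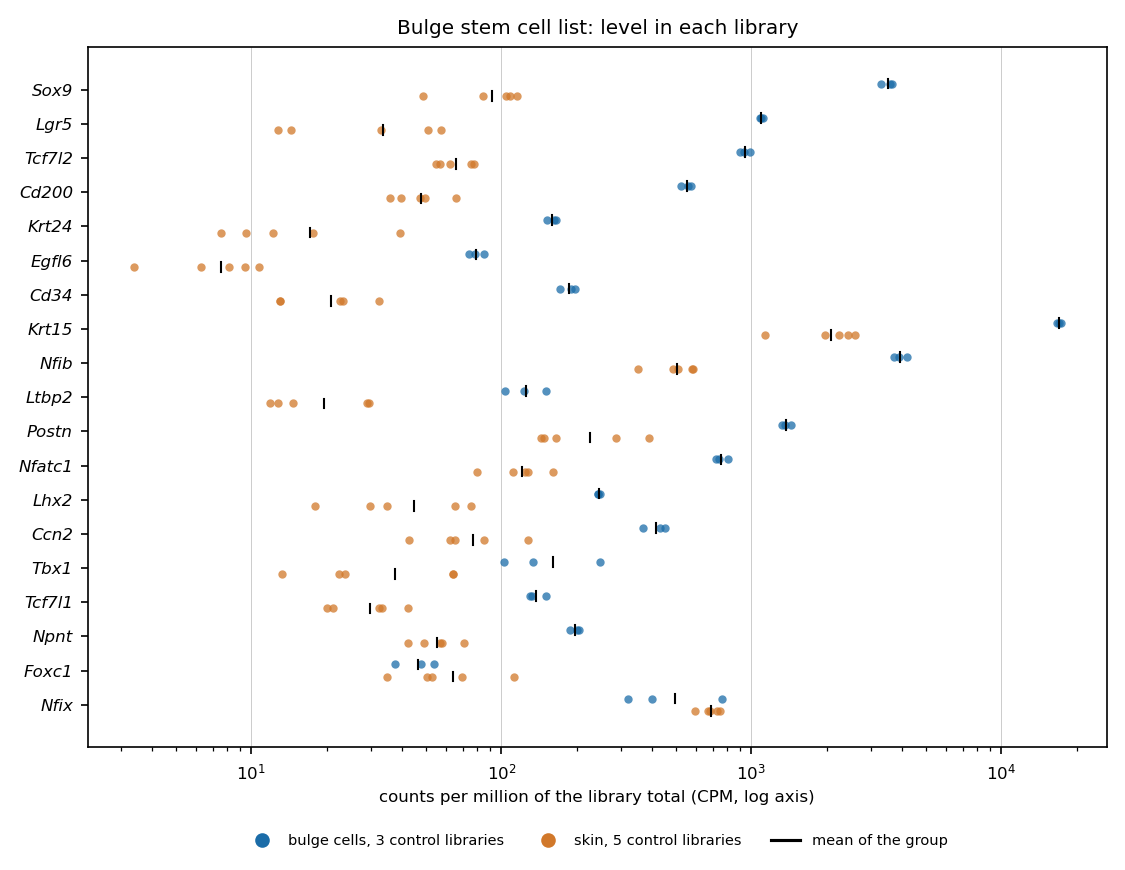
Level of 19 genes of the bulge stem cell list in each library, as CPM on a log axis, with blue points for 3 bulge libraries, orange points for 5 skin libraries and black ticks for group means. Blue and orange points are separate for 17 genes, from Sox9 at the top to Npnt, and overlap for Foxc1 and Nfix at the bottom.

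Genes of differentiated epidermis, the cell layers above the basal layer, went in the opposite direction. Of 22 listed genes 20 passed the filter and 17 were counted lower, beside 15.8% of all genes tested, with a median difference of -4.25. Lor, encoding loricrin of the cornified envelope, was at 2.83, 3.11 and 7.58 CPM in bulge cells and at 3249, 4061, 4618, 3107 and 3653 CPM in skin. The skin mean was 829 times that of bulge cells. Krt10, the keratin of suprabasal cells, was at 228, 281 and 397 CPM against 5027 to 8133 CPM, and Krt77 at 146 ± 10.2 against 6928 ± 1592 CPM. Lor, Krt10 and Krt77 were low in the bulge libraries but not at 0. Lce1a1, also counted lower, had no read there and 131 ± 40.4 CPM in skin, and so passed the filter only through skin. The whole list summed to 2236 to 2538 CPM in bulge cells and to 21903 to 35162 CPM in skin. Calml3, a calmodulin-like protein placed in this list, went the other way at 1021, 1034 and 1069 CPM against 164 to 268 CPM. It made up a large part of the list's sum in bulge cells.

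Promoter windows from RefSeq (GRCm38.p6, 250 bases before to 50 after the start) were found for 13 of the 19 bulge genes and for 15 of the 20 epidermal genes that passed the filter; the tables themselves were made on GRCm39. The 250 bases before the start are shown for a pair from each list, to show their base composition and the motifs searched. In capitals is any match, on either strand, to the core promoter box TATAAA, the Sox family core ACAAT, the homeobox core TAATTA, the forkhead motif TGTTTAC or the palindromic nuclear factor I motif; positions count from 1 at the 5′ end of the window. Cd34 lies at chr1:194938571-194938820 on the plus strand, and Lhx2 at chr2:38339031-38339280 on the plus strand. Krt10 lies at chr11:99389365-99389614 and Lor at chr3:92083143-92083392, both on the minus strand.
Cd34: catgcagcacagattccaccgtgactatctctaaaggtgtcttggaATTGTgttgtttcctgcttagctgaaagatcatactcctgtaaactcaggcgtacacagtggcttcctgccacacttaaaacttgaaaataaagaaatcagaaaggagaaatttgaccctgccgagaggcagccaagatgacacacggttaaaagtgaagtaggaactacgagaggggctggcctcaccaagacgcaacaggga
Lhx2: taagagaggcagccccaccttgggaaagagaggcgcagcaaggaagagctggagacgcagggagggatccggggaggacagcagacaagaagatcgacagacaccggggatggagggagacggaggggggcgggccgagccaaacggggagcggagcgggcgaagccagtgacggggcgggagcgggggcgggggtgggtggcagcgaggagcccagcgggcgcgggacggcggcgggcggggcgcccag
Krt10: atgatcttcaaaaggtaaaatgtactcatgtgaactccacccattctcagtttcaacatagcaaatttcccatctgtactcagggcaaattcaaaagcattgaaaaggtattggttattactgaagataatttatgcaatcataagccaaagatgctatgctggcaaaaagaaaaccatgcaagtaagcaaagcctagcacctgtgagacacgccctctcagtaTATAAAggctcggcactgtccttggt
Lor: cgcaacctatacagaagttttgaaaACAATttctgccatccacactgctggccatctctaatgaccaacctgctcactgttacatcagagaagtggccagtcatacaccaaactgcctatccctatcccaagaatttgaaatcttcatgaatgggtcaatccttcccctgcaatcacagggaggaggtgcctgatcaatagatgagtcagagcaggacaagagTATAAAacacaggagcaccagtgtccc

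The window of Krt10 holds TATAAA from position 225 and that of Lor from position 224, while those of Cd34 and Lhx2 hold none. ACAAT lies at position 47 of Cd34, on the opposite strand, and at position 26 of Lor. The upstream windows hold 6 CpG dinucleotides in Cd34, 25 in Lhx2, 2 in Krt10 and 1 in Lor. Over whole windows, TATAAA was present in 0 of 13 bulge genes and in 6 of 15 epidermal genes, beside 8.02% of 10980 windows of genes that passed the filter, and ACAAT in 3 of 13 and 7 of 15. Among all genes counted higher it was in 5.88% of 578 windows, and among those counted lower in 13.4% of 1625. ACAAT was in 18.9% of windows of genes counted higher, 23.4% of those counted lower and 20.3% of all that passed. TAATTA was in 2.42%, 4.43% and 2.81%, TGTTTAC in 2.77%, 2.83% and 2.43%, and the nuclear factor I motif in 0, 1 and 3 windows of the same sets. Median CpG counts were 20 in windows of genes counted higher, 10 in those counted lower and 20 in all that passed. A match is a description of these letters in 1 window per gene, not a bound site.

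Of 14 genes that basal keratinocytes of the follicle and of the epidermis share, 1 was counted higher and none lower, beside 5.4% and 15.8% of all genes. Between the groups 5 of the 14 overlapped, while 70.5% of all genes tested did not overlap. Krt5, the basal type II keratin, was at 4626 ± 87.3 CPM in bulge cells and 4511 ± 781 CPM in skin, and Krt14, its partner, at 1438 ± 48.5 and 1984 ± 682 CPM. The libraries overlapped for both keratins and for Perp, a desmosomal protein. Trp63, the master regulator of stratified epithelium, was the gene counted higher, at 3044, 3079 and 2878 CPM against 459.9 to 729.7 CPM. Cdh3 and Dsg3, the genes of P-cadherin and desmoglein 3, both differed by 1.82 with no overlap, under the 4-fold mark. The epithelial transcription factor genes Tfap2a and Grhl2 were likewise above skin, by 1.39 and 1.22, and Ovol1, a zinc finger factor, was below it at 18.1 ± 3.00 against 79.5 ± 50.2 CPM, a difference of -1.92.

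Adhesion genes divided by receptor. Hemidesmosomes tie basal cells to laminin-332 through α6β4-integrin, while αvβ6 and αvβ8 integrins bind latent TGF-β. The integrins of the hemidesmosome overlapped between the groups, with Itga6 at a difference of 0.08 and Itgb4 at -0.34, and so did Itga3 and Itgb1 at 0.30 and 0.02. Itgb6 was at 177, 176 and 169.8 CPM in bulge cells and at 23.6 to 48.0 CPM in skin. Itgb8 was at 105, 98.9 and 109 CPM against 13.7 to 22.0 CPM. Both were counted higher, by 2.34 and 2.65. Lamb3, a chain of laminin-332, was higher by 2.20, at 486 ± 13.6 against 106 ± 15.6 CPM. Lama3, another chain, differed by 1.76. Plec, the plakin linker, was lower in all bulge libraries at 950.1 ± 24.5 against 1837 ± 341 CPM, a difference of -0.93. In all, 4 of 16 genes were counted higher and none lower, beside 5.4% and 15.8% of all genes.

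Secreted regulators of the niche went in both directions. Sfrp1, a decoy that binds Wnt proteins, was at 2201, 2296 and 2675 CPM in bulge cells and at 87.3, 98.0, 91.1, 115 and 142 CPM in skin. Its mean was 22.4 times that of skin. Dkk3, of the Dickkopf family, was at 1545, 1465 and 1458 CPM against 28.2 to 116 CPM, a difference of 4.68 ± 0.35 (SE). Wif1, another Wnt-binding inhibitor, was at 42.6, 50.7 and 45.9 CPM against 2.70 to 8.46 CPM in 4 skin libraries and 35.7 CPM in skin replicate 4. Fst, the gene of the activin and BMP antagonist follistatin, was at 208, 228 and 257 CPM against 41.5 to 79.1 CPM, and its difference of 2.03 fell under the 4-fold mark, to 1.83, with median-of-ratios scaling. Sostdc1, an antagonist of BMP and Wnt placed in the upper follicle list, was at 658 ± 23.1 against 38.6 ± 6.34 CPM.

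Other ligands of the same list did not reach the 4-fold mark upwards. Wnt10a came nearest, at 105 ± 14.5 against 44.8 ± 13.2 CPM, a difference of 1.25 with no overlap. Fgf18, a growth factor that holds the follicle at rest, was at 3.72, 2.96 and 3.42 CPM in bulge cells and at 11.6 to 23.6 CPM in skin, and was counted lower. Bmp6 was at 26.2, 22.2 and 33.4 CPM against 9.18 to 23.4 CPM, with overlap. Wnt7b, at 89.6 against 84.7 CPM on average, overlapped as well, and Sfrp2 was counted lower at 2.21 against 12.1 CPM, though not without bulge replicate 1 or 2 or skin replicate 5 (-1.81, -1.97 and -1.88). Bmp4 and Wnt4 lay below skin by 0.87 and 1.35 on the log2 scale with no overlap. Over the 13 genes listed, 12 passed the filter, 4 were counted higher and 2 lower, which is 33.3% and 16.7% beside 5.4% and 15.8% of all genes, and the median was 0.32. The difference in summed level, 4284 to 4800 CPM against 512 to 640 CPM, rested mainly on Sfrp1 and Dkk3.

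**Figure D3:**
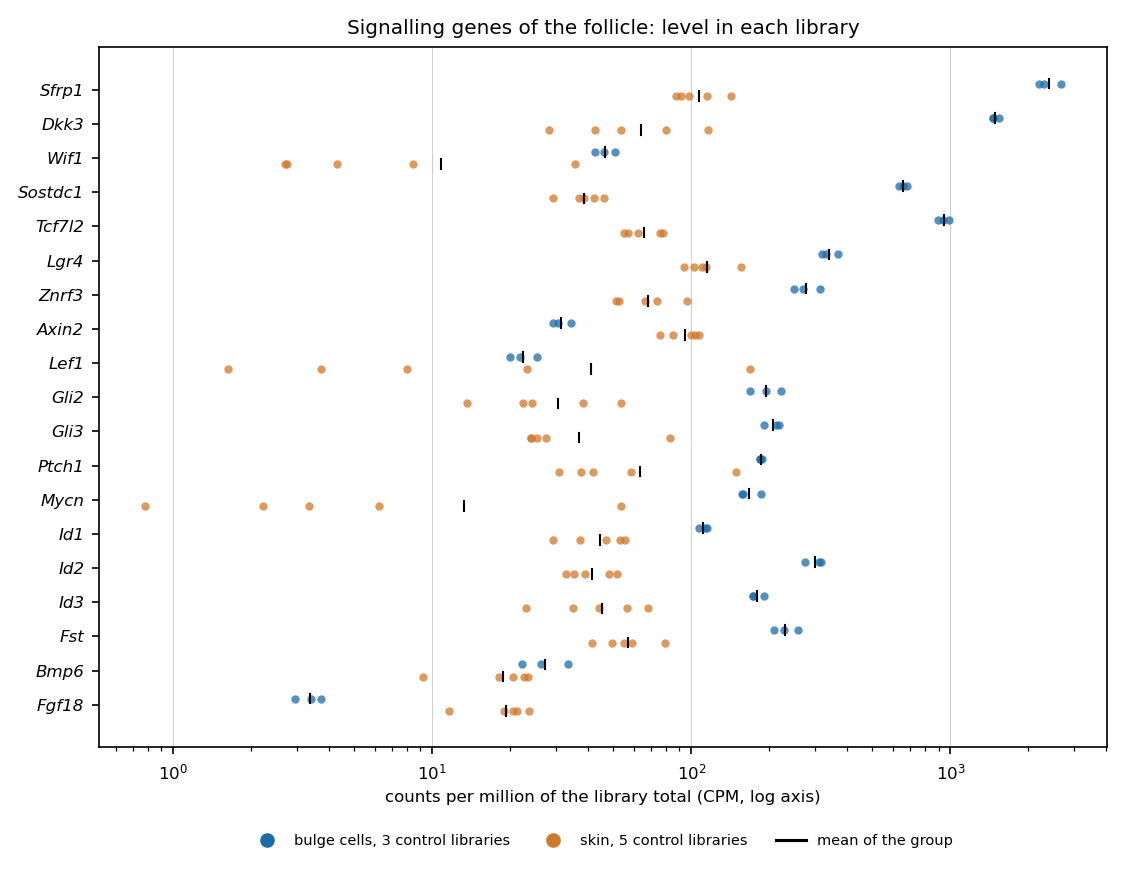
Level of 19 signalling genes in each library, as CPM on a log axis, with blue points for 3 bulge libraries, orange points for 5 skin libraries and black ticks for group means. Sfrp1, Dkk3, Sostdc1 and Tcf7l2 are widely separate, Axin2 and Fgf18 lie lower in bulge cells, and 1 skin library stands high for Wif1, Lef1, Ptch1, Gli3 and Mycn.

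Receptors and targets of the Wnt pathway also divided. The receptor Lgr4 was at 339 against 115 CPM and Fzd7 at 311 against 113 CPM, differences of 1.57 and 1.47 with no overlap. Znrf3, a ubiquitin ligase that removes Frizzled receptors and is itself a Wnt target, was at 249, 269 and 314 CPM against 51.4 to 96.6 CPM. Its difference of 2.04 dropped to 1.84 with median-of-ratios scaling. Ccnd1, cyclin D1, was at 256, 308 and 281 CPM against 45.4 to 90.2 CPM, a difference of 2.14 that dropped to 1.94 under the same scaling. Axin2, the general reporter of β-catenin signalling, lay the other way at 29.3, 30.5 and 34.5 CPM against 76.0 to 107 CPM, a difference of -1.54. Lef1 was at 19.95, 21.8 and 25.4 CPM and overlapped with skin, where replicate 4 held 169 CPM and the others 1.62 to 23.3 CPM. In total 2 of 9 genes tested were counted higher, beside 5.4% of all genes, and 0 of 10 with median-of-ratios scaling. The list median of 0.78 became 1.53 without skin replicate 4 and 0.09 without bulge replicate 3.

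Hedgehog signals from the follicle and from nerves reach the bulge and the germ below it. Mycn, which encodes a transcription factor of the Myc family and is induced by Hedgehog signals, was at 158, 157 and 186 CPM in bulge cells and at 2.23, 0.777, 3.35 and 6.24 CPM in 4 skin libraries, with 53.5 CPM in skin replicate 4. The transducers Gli2 and Gli3 were at 195 ± 26.8 against 30.5 ± 15.7 CPM and at 207 ± 13.7 against 36.7 ± 25.6 CPM. Ptch1, the receptor and a direct target, was at 187, 184 and 184 CPM against 30.8 to 58.8 CPM in 4 skin libraries and 149 CPM in replicate 4, a difference of 1.78. Gli1 was at 47.2 CPM on average in bulge cells and overlapped with skin, again through replicate 4 at 45.96 CPM. Of 9 genes 3 were counted higher, beside 5.4% of all genes. The count was 6 without skin replicate 4, and stayed at 3 without skin replicate 1, 2 or 5.

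Targets of BMP signalling, which holds bulge cells at rest, were higher where they are Id genes, inhibitors of differentiation. Id2 was at 274, 317 and 312 CPM against 32.8 to 51.5 CPM and Id3 at 173, 174 and 191 CPM against 23.1 to 67.9 CPM. Both were counted higher, by 2.85 and 2.05, while Id1 and Id4 differed by 1.35 and 1.37 with no overlap. Id3 is close to the mark and fell short of it at 1.86 with median-of-ratios scaling, at 1.84 without skin replicate 2 and at 1.99 without skin replicate 5. Smad9, a receptor-activated Smad, was at 18.0 against 3.07 CPM. The inhibitory Smad6 and Smad7 and the receptors Bmpr1a and Bmpr2 overlapped. The ligand gene Tgfb2 was counted lower by 2.05 on the log2 scale, but not without skin replicate 1 (-1.81) or bulge replicate 3 (-1.99). Across the 15 genes, 3 were counted higher and 2 lower, or 20% and 13.3% beside 5.4% and 15.8% of all genes. The median was 0.31, and 0.62 without skin replicate 4.

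The 3 Notch receptors listed lay below skin in every bulge library. Notch2 was at 36.3, 22.1 and 45.9 CPM against 221 to 290.4 CPM, a difference of -2.84, and Notch3, also expressed by pericytes, at 4.74 ± 1.40 against 95.8 ± 15.0 CPM. Notch1 differed by -1.18 with no overlap. The ligand Jag1 was in the other direction, at 308 ± 29.2 against 158 ± 67.0 CPM, without reaching the 4-fold mark. No gene of the list was counted higher and 2 of 9 were counted lower, a share of 22.2% beside 15.8% of all genes.

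The kinase that the series is named for was present at a low level in bulge cells. Grk2, which phosphorylates activated G-protein-coupled receptors, was at 20.7, 17.9 and 21.4 CPM in bulge cells and at 104, 111, 109, 101 and 134 CPM in skin. The groups did not overlap, and skin held 5.60 times the level of bulge cells. Its relative Grk3 was at 1.34, 0.156 and 0.594 CPM against 19.6 to 47.0 CPM, and the β-arrestin gene Arrb1 at 34.1 ± 8.00 against 199.5 ± 38.4 CPM. Grk5 lay higher in bulge cells at 29.3 ± 4.84 against 17.3 ± 4.40 CPM, a difference of 0.75. In this list 3 of 7 genes were counted lower, beside 15.8% of all genes, and none higher.

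Proliferation genes mostly overlapped between the groups. Mki67, a marker of cycling cells, was at 48.7, 52.4 and 44.3 CPM in bulge cells and at 40.2 to 68.6 CPM in 4 skin libraries, with 241 CPM in skin replicate 4. Only Rrm2 and Tyms, enzymes of deoxynucleotide synthesis, were counted higher, at 78.5 ± 1.97 against 15.7 ± 11.7 CPM and at 64.5 ± 4.66 against 9.60 ± 3.08 CPM. Of 17 genes tested 11 overlapped, whereas 70.5% of all genes tested did not overlap, and the 2 counted higher stand beside 5.4% of all genes. The list summed to 432 to 459 CPM in bulge cells, to 171 to 224 CPM in 4 skin libraries and to 654 CPM in skin replicate 4. Its median of 0.64 became 1.02 without skin replicate 4, with 3 of 17 counted higher. Without skin replicate 5 the count was also 3, at a median of 0.63. Among inhibitors of cyclin-dependent kinases, Cdkn1a (p21) was at 43.9, 45.1 and 43.2 CPM against 251 to 481 CPM, and Cdkn1b (p27) at 43.2, 27.1 and 40.7 CPM against 142 to 195 CPM. Cdkn2b (p15) had no read in any bulge library and 17.3 to 22.2 CPM in skin, at least 42.7-fold lower against a floor of 3 reads per library. These 3 of 6 genes were counted lower, beside 15.8% of all genes, while Cdkn2d (p19) differed by 1.60 in the other direction.

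Markers of the other cell types of skin were low in the bulge libraries. The skeletal muscle list summed to 6.84 to 11.6 CPM in bulge cells and to 6570 to 15835 CPM in skin, the adipocyte list to 1.49 to 7.16 and 1505 to 9555 CPM, and the endothelial list to 12.6 to 21.9 and 375 to 563 CPM. Beside 15.8% of all genes, all tested members of these 3 lists were counted lower, 13, 11 and 13 genes. Of those, 10, 6 and 4 had at most 3 reads in every bulge library and so passed the filter only through skin. Acta1, skeletal muscle actin, had no read in the bulge libraries and 2041 to 4734 CPM in skin, at least 7765-fold lower. Pecam1, the endothelial adhesion molecule, was at 1.04, 1.09 and 5.05 CPM against 93.5 to 150.1 CPM. Bulge replicate 2 held the most adipocyte and endothelial signal, and none of the 3 libraries approached the level in skin.

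The fibroblast list summed to 462 to 497 CPM in bulge cells and to 5941 to 42012 CPM in skin, and 16 of 18 genes were counted lower, beside 15.8% of all genes; 6 of the 18 had at most 3 reads in every bulge library and passed the filter only through skin. Col3a1, a fibrillar collagen, held at most 1 read in any bulge library against 6080.2, 1767, 1009, 1406 and 766 CPM in skin, skin replicate 1 being the highest. Vim, the intermediate filament of mesenchymal cells, was at 1.04, 1.40 and 3.27 CPM against 245 to 832 CPM. The residual sum in bulge cells came from a few genes of matrix proteins, Col6a1 at 188 ± 13.8 CPM, Sparc at 178 ± 5.71 CPM and Fbln1 at 75.3 ± 11.8 CPM. Col6a1 overlapped with skin, and Fbln1 was above it by 1.33.

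Leukocyte genes summed to 58.1 to 70.6 CPM in bulge cells against 784 to 1965 CPM, with 15 of 17 counted lower, beside the same 15.8%; 6 of the 17 passed the filter only through skin in the same way. Ptprc (CD45), the pan-leukocyte marker, was at 2.98, 2.18 and 1.49 CPM against 16.9 to 50.4 CPM. Cd74, the invariant chain of class II histocompatibility proteins, was at 18.2, 23.3 and 20.5 CPM against 168 to 459.9 CPM. In the pericyte list 6 of 9 genes were counted lower, in the erythrocyte list 2 of 2, and in the Schwann cell list 2 of 7, beside 15.8% of all genes. Among the genes tested in these lists 2, 1 and 1 had at most 3 reads in every bulge library and passed the filter only through skin. Melanocyte genes gave the smallest contrast: the list summed to 281 to 340.1 CPM in bulge cells and to 131 to 918 CPM in skin. That sum was carried by Mitf, at 310.3, 262 and 248 CPM, while Dct was at 9.98, 14.9 and 10.8 CPM and overlapped with skin. Pmel, Tyr and Tyrp1 overlapped as well. Sox10, which is also in the Schwann cell list, and Ednrb were counted lower, at 0.10 and 0.40 CPM on average in bulge cells. They are 2 of 7 melanocyte genes tested, beside 15.8% of all genes, and 1 of the 7 passed the filter only through skin.

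**Figure D4:**
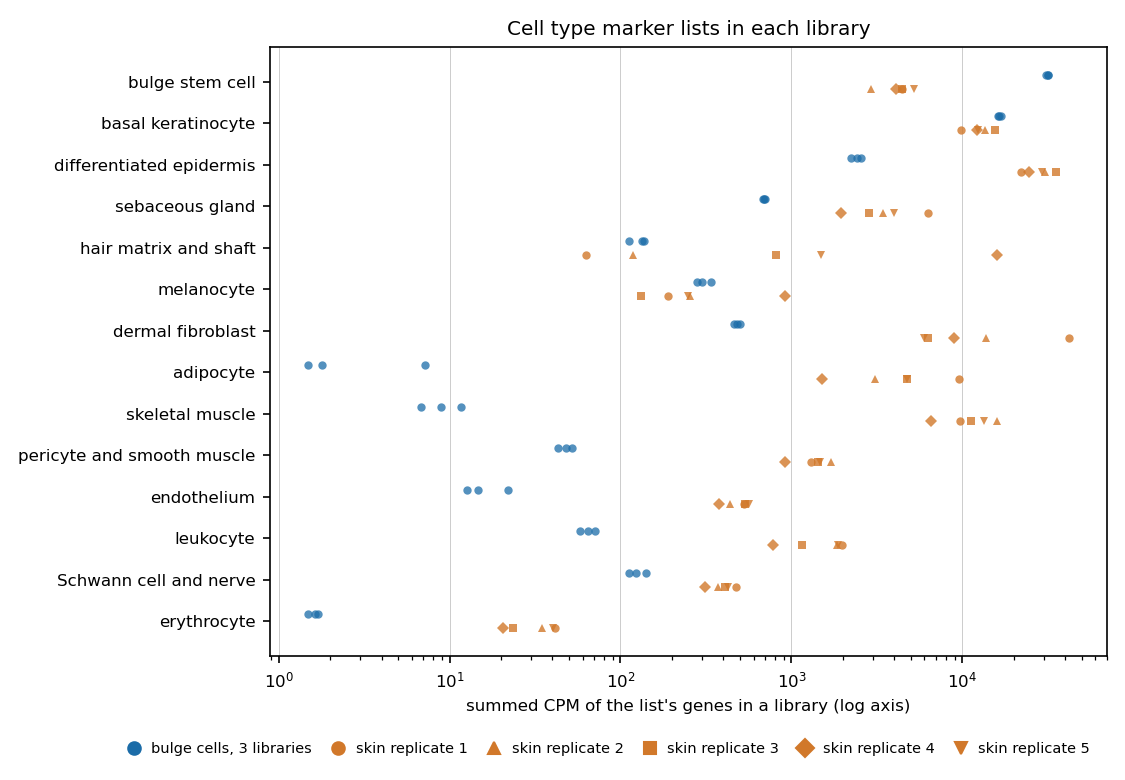
Summed CPM of the genes of 14 cell type lists in each library, on a log axis, with blue points for 3 bulge libraries and orange symbols for skin replicates 1 to 5. The bulge libraries lie to the right of skin for the bulge and basal keratinocyte lists, within the range of skin for melanocyte genes, and far to the left for adipocyte and skeletal muscle genes.

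Other compartments of the follicle were compared in the same way. Sebaceous gland genes summed to 685 to 699 CPM in bulge cells and to 1956 to 6296 CPM in skin. Of these 15 genes 11 were counted lower, beside 15.8% of all genes, and 1 of the 15 had at most 3 reads in every bulge library. Pparg, the nuclear receptor of sebocytes and adipocytes, was at 0, 0.622 and 0.297 CPM against 11.6 to 56.5 CPM. In the upper follicle, Krt79 and Cst6 were counted lower at 24.1 ± 4.50 against 533 ± 129 CPM and 5.49 ± 0.633 against 323 ± 43.6 CPM. Lgr6, which marks stem cells above the bulge, differed by 1.65 towards bulge cells, at 280.4, 296 and 301 CPM against 73.1 to 119 CPM. Hair matrix and shaft genes overlapped for 14 of 16, with a wide range in skin, whereas 70.5% of all genes tested did not overlap. Krt71, an inner root sheath keratin, was at 11.6, 20.5 and 15.5 CPM in bulge cells and at 0.239, 27.6, 379.5, 7272 and 727 CPM in skin. Of the 16 hair matrix and shaft genes 2 were counted lower, beside 15.8% of all genes, and 10 without skin replicate 1. Without skin replicate 2 the count was 2 of 16, and without skin replicate 4 or 5 it was 1 of 9. At most 3 reads in every bulge library were found for 4 of the 16, which passed the filter only through skin.

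**Figure D5:**
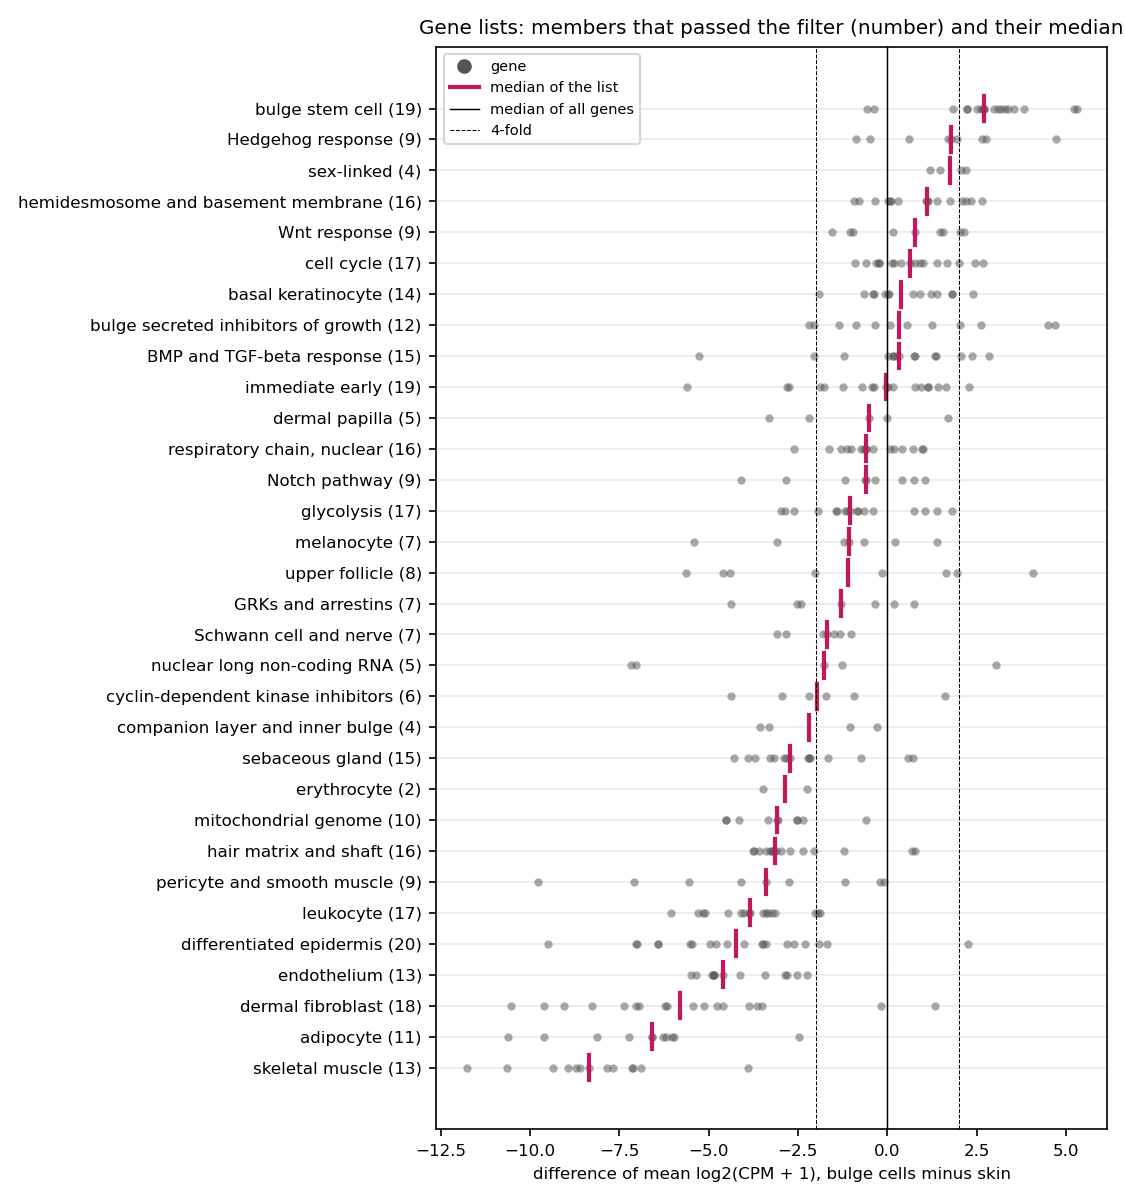
Difference of mean log2(CPM + 1), bulge cells minus skin, for each gene of 32 lists that passed the filter (grey points, number in parentheses) with the list median (red tick), sorted by that median. The bulge list leads at 2.71 and the Hedgehog list follows at 1.78, the solid line marks the median of all genes at -0.01, and adipocyte and skeletal muscle lists lie lowest at -6.57 and -8.36; dashed lines mark 4-fold.

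Metabolic and stress genes were also listed. In glycolysis 3 of 17 genes were counted lower, a share of 17.6% near the 15.8% of all genes, among them Aldoa at 69.7 against 580 CPM on average, while Ldha, lactate dehydrogenase A, was at 153 ± 8.86 against 274 ± 62.0 CPM. Nuclear genes of the respiratory chain had a median of -0.59, with 1 of 16 counted lower, or 6.25% beside 15.8% of all genes. Of the mitochondrial genome 9 of 10 genes were counted lower, or 90% beside the same 15.8%. However, mt-Cytb was near skin at 5620 ± 310.2 against 8573 ± 1740 CPM, and mt-Co1 was at 2097 ± 170.3 against 12391 ± 2847 CPM. Among immediate early genes, which cell dissociation can induce, Jun was at 459.5, 400.1 and 411 CPM against 161 to 215 CPM, a difference of 1.15. Ier2 was the only one of 19 counted higher, at 357 ± 22.1 against 72.5 ± 11.8 CPM. Fos and Fosb overlapped, and Jund, Egr3 and Hspa1b were counted lower. Counted higher and lower were thus 5.26% and 15.8% of the 19, near the 5.4% and 15.8% of all genes. The list median was -0.04, and any part of the sort in these levels was not tested.

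Beyond the lists, the genes with the largest differences were named by rank. Above Sox9 in that order stood Grik1, a kainate receptor subunit, at 282, 247 and 255 CPM against 1.55 to 22.1 CPM, and Pdzrn4 at 505, 513 and 507 CPM against 3.39 to 26.6 CPM. Camk4, a calmodulin-dependent kinase, was at 189.6, 200.4 and 185 CPM against 2.58 to 9.14 CPM. Tgm5, a transglutaminase of epidermis, was at 659, 693 and 641 CPM against 10.8 to 28.1 CPM. That none of these genes overlapped between the groups follows from the rule by which they were counted. Skin replicate 5 was the highest skin library for Grik1, Pdzrn4 and Camk4. Sorcs3, a sorting receptor of the Vps10p family, was at 84.6, 93.0 and 64.2 CPM against 0.918 to 1.72 CPM.

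The very top of the order was held by genes with few or no reads in skin. Ier3ip1 was at 111, 94.0 and 113 CPM in bulge cells, Cox17 at 68.5, 74.5 and 72.5 CPM and Dolk at 56.0, 55.1 and 51.7 CPM, and all 3 were listed at 0 in all 5 skin libraries. Cox17 and Dolk encode a copper chaperone and dolichol kinase, which cells in general need. Ier3ip1, Cox17 and Gng10 overlap an exon of another gene on the same strand in the annotation used here, and Dolk lies within the span of another gene. In total 15 genes counted higher had at most 3 reads in every skin library, and 12 of those 15 overlapped another gene, beside 50% of all genes tested. Cyp2b27-ps, a pseudogene, was at 176 ± 20.8 against 1.98 ± 1.34 CPM, and its reads may be shared with its gene family.

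Some genes of high level in bulge cells were also followed. Apoe, the lipid-carrying apolipoprotein, was at 10291 ± 543 CPM in bulge cells and 2245 ± 383 CPM in skin, a difference of 2.21. Cxcl14, a chemokine of epithelia, was at 2196 ± 34.2 against 227 ± 66.4 CPM. Slc6a6, the taurine transporter, was at 5445 ± 182 against 520.2 ± 62.4 CPM, Efna5, an ephrin ligand, at 2385 ± 69.2 against 163 ± 31.1 CPM, and Aqp3, a water and glycerol channel, at 1177 ± 27.8 against 136 ± 89.0 CPM. All 5 were counted higher, which does not hold for every gene of high level. Per kilobase of exon these genes ranked among the 25 highest of the bulge libraries, a set chosen after the data were seen. Of the same 25, Krt5, Perp and Krt14 overlapped with skin, at differences of 0.05, -0.05 and -0.40. Sfn, Cavin1, Sdc4 and Sdc1 lay above skin by 1.24, 1.96, 1.75 and 1.91 without reaching the 4-fold mark.

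Genes counted lower by the widest margins came mostly from muscle, fat and dermis, with Lor of the epidermis among them. The 12 largest included Acta1, Ttn, Car3, Col3a1, Des, Lpl, Dcn, Lor, Atp2a1, Ckm and Xirp2, with differences from -11.76 to -9.30. Acta1, Des, Ckm and Xirp2 had no read in any bulge library. Ttn, the giant sarcomere protein, was at 2.53, 0.933 and 0.743 CPM in bulge cells and at 2544 to 4305 CPM in skin. In all, 899 of the 2404 genes counted lower had at most 3 reads in every bulge library, so for these the size of the difference is set by the level in skin and by the pseudocount.

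The bulge libraries varied little among themselves. Among genes of at least 20 CPM on average, the median SD of log2(CPM + 1) was 0.13 over 8064 genes in bulge cells and 0.24 over 8602 genes in skin; 2 genes in bulge cells and 240 in skin had an SD of at least 1. The 8 most variable genes of the bulge libraries were Nrtn, Mlycd, Ypel3, Dbp, Pip4p1, Mplkip, Pnrc1 and Arf6. Bulge replicate 3 was the highest for each of them. Nrtn, the neurotrophic ligand neurturin, was at 30.5, 68.0 and 154 CPM, and Dbp, a transcription factor of the circadian clock, at 42.4, 73.1 and 158 CPM. In skin Dbp was at 129, 74.1, 17.9, 19.4 and 60.3 CPM, so both groups varied in it and they overlapped.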

How the data were processed

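Gene expression was measured by bulk RNA sequencing. The authors deposited 1 table per tissue. The deposited signal is gene reads that the authors had divided by 1 size factor per library, as the values show. Dividing by the smallest step returned whole reads for 100% of nonzero values within a tolerance of 0.01. Per the submitters' processing notes the build was GRCm39, with featureCounts and DESeq2 named for skin alone; the aligner and the annotation are not given in the sources used here.

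From the recovered reads, CPM of all rows of the own table was computed (Python 3.11.15, pandas 2.3.3) on 55305 shared identifiers, and log2(CPM + 1) was compared among 15256 genes with at least 2 CPM in at least 3 libraries. Groups were taken from the labels. No p-value is given for a gene between the tables; edgeR 4.0.16 (quasi-likelihood, trimmed mean scaling, Benjamini-Hochberg adjusted p under 0.05 and 4-fold) was an alternative that compares these libraries, not the cell population alone. It was tested on simulated data. SD and SE describe the spread among the libraries of a group. The floor of 3 reads covers counting error only, and reads carry no molecular identifiers. Treatment of strand and of reads from near-identical or overlapping genes is not given in the sources used here, so keratin, hemoglobin, histocompatibility and pseudogene values are uncertain to that extent.

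Names, types and exon lengths came from GENCODE M21 by identifier, and promoters from RefSeq. The comparison and its 32 gene lists were chosen with earlier results of these data known. Named by rule were the 12 genes with the largest difference each way (at least 20 CPM, no provisional symbols), both sort markers, all genes of the bulge and hemidesmosome lists, the 4 highest of every other list and the 8 most variable among bulge libraries; other list members were named after their values were seen. A few genes that these rules name are not reported here. The 8 eKO libraries were not used.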

Additional observations from a re-analysis of the deposited data

Results flagged for a closer look

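In 39 cases, 1 of the 5 control skin libraries lay far from the other 4 for a named gene, with a gap to its nearest neighbour that took most of the range of the group. In all, 224 named genes with at least 2 CPM in some skin library were checked; chance alone flags about 1 in 20, and groups of 3, such as the bulge libraries, are not examined this way.

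Skin replicate 4 gave 25 of these cases. Inner root sheath and companion layer keratins were highest there: Krt71 at 7272 CPM with the next library at 727, Krt25 at 2109, Krt27 at 1757, Krt73 at 822 and Krt75 at 562 CPM. Pigment genes followed, Dct at 358 CPM, Tyrp1 at 140.4 CPM and Tyr at 89.8 CPM. Of the cell cycle and Hedgehog lists, Mki67 was at 241 CPM, Top2a at 72.7, Rrm2 at 36.4, Ptch1 at 149, Gli3 at 82.6, Mycn at 53.5 and Hhip at 14.3 CPM. Notch1 was at 341 CPM, the BMP receptor gene Bmpr1a at 206 CPM and Slc4a1 at 7.39 CPM. Lef1 was at 169 CPM, Wif1 at 35.7, Smad6 at 75.8 and Smad7 at 111 CPM. Of the basal list, Tfap2a was at 203 CPM, Ovol1 at 168 and Cdh3 at 135 CPM.

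Skin replicate 1 held 10236 CPM of Col1a1, 12266 of Col1a2, 6080.2 of Col3a1 and 8687 of Sparc, each more than 2 times the next library. Skin replicate 2 held 371 CPM of Krt16 and 358 CPM of Krt6a, keratins of the companion layer and of stressed epidermis, and 2289 CPM of the muscle myosin gene Myh4. Skin replicate 3 was highest for Wnt7b, at 113 CPM.

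Skin replicate 5 was high for 3 genes that were counted higher in bulge cells, Grik1 at 22.1 CPM, Camk4 at 9.14 and Itgb8 at 22.0 CPM, and it was low for Y-linked genes. Ddx3y and Eif2s3y were each at 0.0854 CPM there and Uty at 0, while the nearest skin libraries held 103, 59.3 and 31.3 CPM. With all libraries, Ddx3y and Uty were counted higher in bulge cells, by 2.06 and 2.21; without skin replicate 5 their differences were 0.74 and 1.19, and no Y-linked gene was counted.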

How the results depend on the processing

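No paired analysis was possible because no label links a skin library to a bulge library. Skin replicates are numbered in the order of the deposited columns. The 231 named genes, 53 of them added after seeing the data, and 32 list medians were recomputed under other library totals, pseudocounts, filters and without each library in turn. None of the 129 named genes counted changed direction. Of those not counted, 17 crossed 0 under some setting, Itga6, Itgb1, Itga2, Krt5, Perp, Wnt7b, Bmpr2, Smad6, Smad7, Col6a1, Top2a, Klf6, Crabp1, Myl9, Pip4p1, Pnrc1 and Tyrp1, and so did the median of immediate early genes, at 0.008 without bulge replicate 3. Itga6 reached -0.12 with median of ratios, and Tyrp1 moved from -0.64 to 0.34 without skin replicate 4. Of the 129 counted, 111 were counted under each of these settings; the others included Fst, Znrf3, Ccnd1, Tbx1, Cdkn1b, Arf6, Fgf10, Hbb-bt, Id3, Smad9, Sfrp2, Sox10, Tgfb2, Gapdh, Fgf18, Ddx3y and Uty. Leaving out 1 library took Arf6 to -1.93 (bulge replicate 1), Cdkn1b to -1.997 (bulge replicate 2), Fst to as low as 1.93 and Znrf3 to as low as 1.95. Counts of genes higher and lower, 824 and 2404, came to 462 and 1145 with a pseudocount of 5 CPM, to 3285 and 4279 at 2-fold, and to 170 and 1223 at 8-fold. Leaving out single libraries gave 785 to 894 higher and 2356 to 2441 lower. With edgeR, 895 genes were higher and 3241 lower, of which 762 and 2402 were also counted by fold and overlap, beside backgrounds of 5.87% and 21.2%. Scaling moved the median of all genes to -0.10 with the trimmed mean, to -0.16 without mitochondrial and the highest genes and to -0.20 with median of ratios.

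Several list medians moved. With median of ratios they were 0.19 for basal keratinocyte, 0.90 for hemidesmosome, 0.28 for Wnt response and -0.78 for respiratory chain genes; without mitochondrial and the highest genes the Wnt list was at 0.35. A pseudocount of 0.5 CPM gave -9.30 for skeletal muscle and -5.26 for endothelium. A pseudocount of 5 CPM brought medians of low lists towards 0 by its construction: skeletal muscle -6.10, adipocyte -4.52, fibroblast -4.01, endothelium -2.66, mitochondrial genome -2.52, leukocyte -2.46, pericyte -2.44, sebaceous gland -1.99, erythrocyte -1.51, glycolysis -0.79 and upper follicle -0.73. With no filter the medians were 0.084 for secreted inhibitors, -0.84 for erythrocyte and 0.13 for Wnt response; at 10 CPM they were 0.56 for secreted inhibitors, -4.78 for differentiated epidermis, -4.82 for pericyte and -3.47 for erythrocyte genes. Leaving out single libraries gave -2.03 to -1.66 for cyclin-dependent kinase inhibitors, -1.59 to -0.017 for dermal papilla, 0.089 to 1.53 for Wnt response, -1.17 to -0.80 for glycolysis, -4.06 to -1.07 for hair matrix and -1.58 to -0.02 for melanocyte genes. The causes were not tested. At these depths a floor of 3 reads is 0.446 to 0.467 CPM in a bulge library and 0.212 to 0.258 CPM in a skin library, so differences of genes below those levels were not detectable.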

Other observations

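Several genes that most cell types use were about 10 times higher in the bulge libraries on the CPM scale. H3f3b, which encodes the replacement histone H3.3, was at 2987, 3271 and 3184 CPM in bulge cells and at 209.7 to 383 CPM in skin. Ubb, a polyubiquitin gene, was at 1375 ± 138 against 139.6 ± 12.6 CPM, and Dazap2 at 1716 ± 7.09 against 182 ± 12.9 CPM (SD, n = 3 and n = 5). All 3 genes were counted higher, a rule that requires no overlap between the groups. Other broadly used genes did not follow: Actb, β-actin, was at 635 ± 77.3 CPM in bulge cells and 932 ± 169 CPM in skin, and Gapdh was listed at only 2.32 ± 0.761 and 15.3 ± 3.50 CPM.

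Large gaps in CPM towards skin also lay in genes that are not markers of a cell type, though not among the 12 largest log2 differences. Lars2, the mitochondrial leucyl-tRNA synthetase, was at 8649 ± 775 CPM in skin and 238 ± 64.6 CPM in bulge cells, and Gphn, gephyrin, at 3872 ± 261 against 357 ± 28.5 CPM. The nuclear long non-coding RNAs Neat1 and Malat1 were lower in bulge cells by 1.78 and 1.25 on the log2 scale, under the 4-fold mark, while Meg3 and H19, imprinted RNAs, were counted lower and Snhg11 was counted higher at 113 ± 13.6 against 13.2 ± 3.93 CPM. By transcript length, the median difference was -0.11 in the shortest, 0.04 in the middle and 0.09 in the longest of 3 equal classes of protein-coding genes.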
